A study of Arabidopsis thaliana with 12 samples.

Results

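UDP-glycosyltransferases of the plant UGT family were followed in Arabidopsis seedlings during cold exposure. A probe set was taken as a member where the array annotation gave it exactly 1 gene and that gene's symbol began with UGT and a digit. Where a gene had several such probe sets, the one with the highest mean over all arrays was to be kept, but each gene had 1. This gave 47 genes, each with 1 probe set, among 22746 probe sets that are not controls. All 47 symbols were found in the RefSeq gene table of assembly TAIR10.1, which lists 58 genes with such a symbol. A further 3 probe sets that the annotation pairs with a UGT and another gene were left out by the rule.

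UGT enzymes move a sugar, most often glucose from UDP-glucose, onto small acceptor molecules such as flavonoids, hydroxycinnamic acids, plant hormones, sterols and foreign compounds. The added sugar makes the acceptor more soluble and usually less reactive, and for many products it allows storage in the vacuole. Flavonol glycosides and anthocyanins are well known to accumulate in Arabidopsis in the cold, and steryl glucosides are lipids of the plasma membrane.

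RNA came from whole seedlings 14 days old, of wild type (Columbia gl1 with a CBF2::LUC transgene) and of rcf1-1. The gene RCF1 encodes a DEAD-box RNA helicase, and rcf1-1 is a single mutant allele of it. Seedlings grown at 21 °C were held at 4 °C for 0 h, 12 h or 24 h, which gave 6 groups with 2 biological replicates each, 12 Affymetrix ATH1 arrays in all. The labels give the mutant as rcf1-1 and name the gl1 background and the CBF2::LUC transgene for the wild type. The labels give no unchilled group at 12 h or 24 h, so cold and elapsed time, with its time of day, cannot be told apart. In extracts of whole seedlings, fewer cells of a type and less RNA per cell cannot be told apart either.

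Values are log2 RMA values, and a difference of 1 is a 2-fold change. The medians of the arrays lay between 4.03 and 4.22. Where a group's mean lay below all 12 array medians, the signal was counted as low, here also called among the lowest signals. Such means spanned a range, and no detection calls showed where the floor of the array lies. A change measured from or to a low group may understate the true one. It is called a lower bound in size here, apart from the error of the estimate, and this was not tested. By this convention 16 members were low in all 6 groups, 12 in some groups and 19 in none. A member was called when limma's adjusted p over all probe sets was under 0.05, errors of differences are limma's standard errors, and n is 2 arrays per group. Levels of different probe sets are not compared with each other.

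The replicate 2 arrays at 24 h stood apart in both genotypes. Their GAPDH 5′ minus 3′ probe signals were -5.13 and -4.45, against -1.06 to -0.29 on the other 10 arrays. Replicates correlated across all probe sets at 0.954 in wild type and 0.953 in rcf1-1 at 24 h, and at 0.989 to 0.996 in the other groups. At 24 h, 14 members in wild type and 11 in rcf1-1 read more than 1 log2 unit lower in replicate 2 than in replicate 1, and no member did in the other 4 groups. The share of all probe sets that did so was not counted. At 24 h the members' median of replicate 2 minus replicate 1 was -0.30 in wild type and -0.43 in rcf1-1. Over all probe sets it was 0.03 and 0.01, so the members' 24 h means were lowered more by these arrays than most. The members' replicate differences at 24 h correlated between the genotypes at r = 0.62, and those of all probe sets at 0.69, over points that share their 4 arrays. Counts at 24 h are therefore given with and without these arrays. RCF1 itself is not analysed here, so its transcript gives no check on the mutant's labels.

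The seedling label was set against marker genes. Of 7 green-tissue markers, the 2 that were paired with a probe set read from 8.89 to 12.1 for LHCB4.2 and from 11.7 to 12.9 for RCA over the 12 arrays. The root marker EXPA7, the only 1 of 8 that was paired, read 3.76 to 4.95, and the guard cell marker GC1, 1 of 4, read 7.75 to 8.81. None of 4 epidermis and trichome markers was paired. LHCB4.2, a light-harvesting protein gene, fell by 1.09 at 12 h and by 2.51 at 24 h in wild type, and by 1.24 and 2.68 in rcf1-1. RCA, which encodes rubisco activase, fell by 0.80 ± 0.20 in rcf1-1 at 24 h (limma, adjusted p = 0.0169), and its wild-type difference of -0.67 there was not called (adjusted p = 0.0511). GC1 differed between rcf1-1 and wild type by -0.67 at 0 h, -0.73 at 12 h and -0.46 at 24 h, none called singly, and was called lower in rcf1-1 averaged over the times, at -0.62 ± 0.12 (adjusted p = 0.0124). The part of LHCB4.2 and RCA in the cold differences of the UGT genes, and of GC1 in their genotype differences, was not tested.

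In unchilled seedlings none of the 47 members was called in rcf1-1 against wild type with limma, where 0.11% of all probe sets were called, and none had an unadjusted p under 0.05. The differences ran from -0.47 to 0.53. UGT73C1 differed by 0.29 ± 0.44, UGT78D1 by 0.29 ± 0.34 and UGT80B1 by -0.09 ± 0.26.

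**Figure D1:**
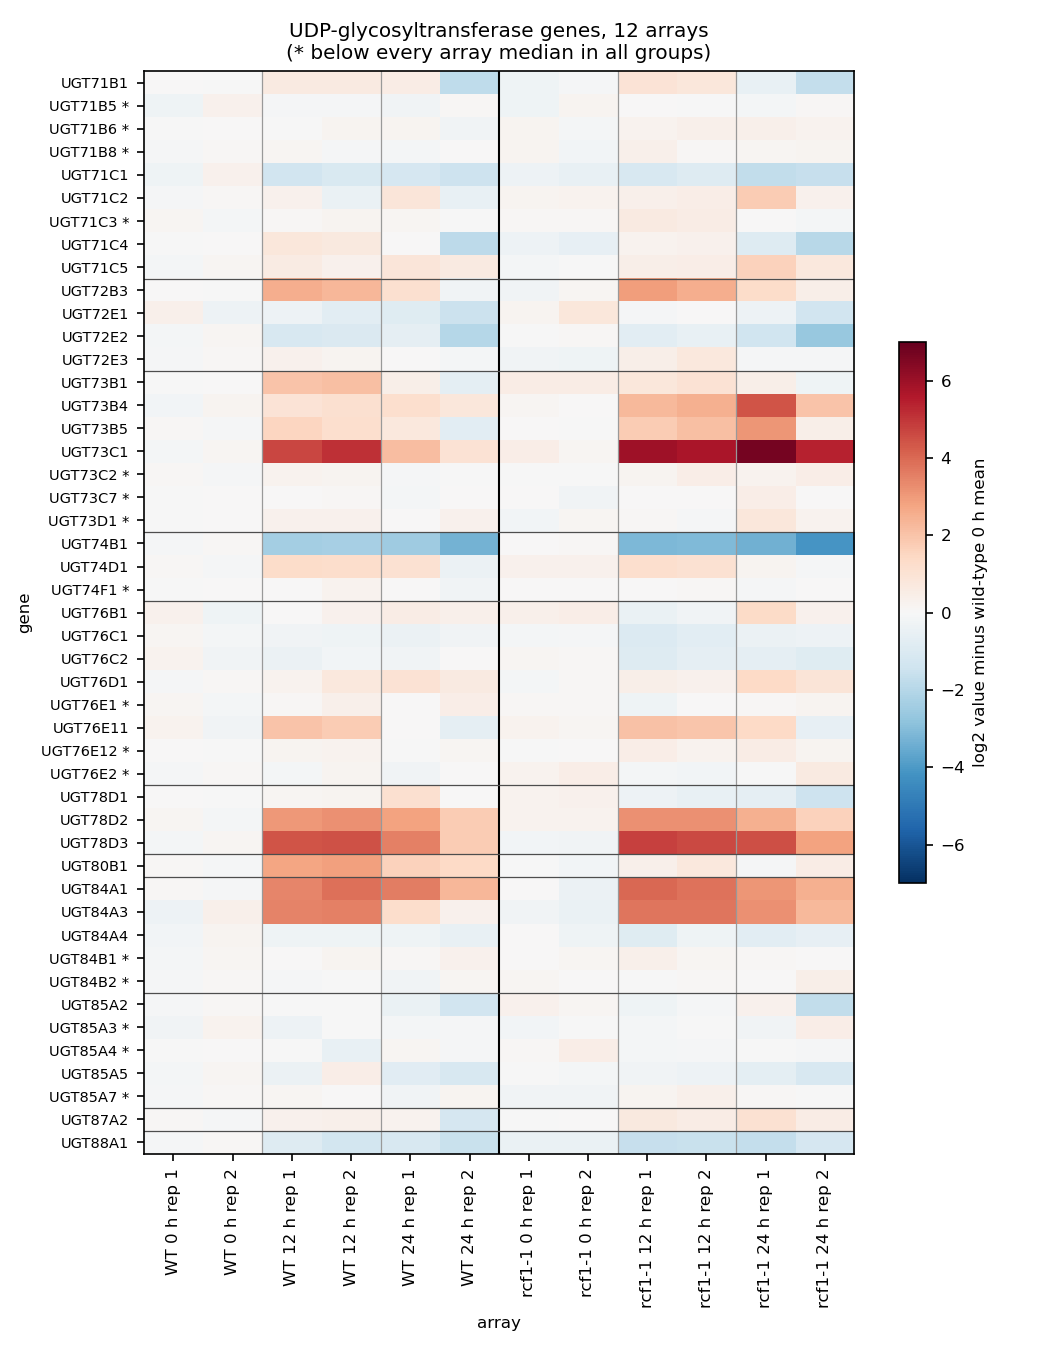
Log2 value of each of the 47 members (rows, split by number family) minus its wild-type 0 h mean, on each of the 12 arrays (columns), with red above and blue below 0. Asterisks mark the 16 members that were low in all groups. UGT73C1, UGT78D2, UGT78D3, UGT84A1 and UGT84A3 stand out above the wild-type 0 h level at 12 h in both genotypes, UGT74B1 stands below it, and UGT80B1 rises in wild type.

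More members were called higher than lower in each cold comparison. After 12 h, 12 members were called in wild type, 9 higher and 3 lower, which is 25.5% of the family beside 12.0% of all probe sets. In rcf1-1 13 were called, 9 higher and 4 lower, which is 27.7% beside 12.2%. With both 24 h replicate 2 arrays left out of the fit, 18 and 28 members were called, beside 28.6% and 29.5% of all probe sets. The higher calls alone made up 19.1% of the family in each genotype, beside 6.05% of all probe sets in wild type and 5.46% in rcf1-1. The median difference of the 47 members was 0.17 in wild type and 0.22 in rcf1-1, against -0.01 and 0.00 over all probe sets. The counts cover all members, including the 16 that stayed among the lowest signals. In rcf1-1, 7 members were called without any 1 of 3 arrays (both 0 h arrays and 12 h replicate 2), and 8 without 12 h replicate 1.

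After 24 h, 9 members were called in wild type, 6 higher and 3 lower, or 19.1% beside 13.2% of all probe sets. Its higher calls were 12.8% of the family beside 5.83%, and those of rcf1-1 19.1% beside 8.38%. In rcf1-1 16 were called, 9 higher and 7 lower, or 34.0% beside 20.8%. The median difference was -0.04 in wild type and 0.17 in rcf1-1, against 0.02 and 0.03 over all probe sets. When both 24 h replicate 2 arrays were left out, 18 members were called in wild type, where 24.7% of all probe sets were, and 25 in rcf1-1, where 34.0% were. Without wild-type 24 h replicate 1 the wild-type split turned to 4 higher and 9 lower, and with the filter on low values the rcf1-1 split was 8 and 8. The wild-type count was 5 without wild-type 0 h replicate 2 and 15 without either rcf1-1 24 h array, and the rcf1-1 count was 7 without rcf1-1 0 h replicate 1 and 9 without replicate 2. The comparisons at 12 h and 24 h of a genotype share its 0 h arrays. A total of 22 members were called in at least 1 cold comparison and 25 in none, and UGT73C1, UGT78D2, UGT78D3, UGT84A1, UGT74B1 and UGT88A1 were called in all 4. The shares of all probe sets called in at least 1 and in all 4 were not counted, so these counts have no background.

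At 12 h, 9 members were called in both genotypes, 3 in wild type alone and 4 in rcf1-1 alone. At 24 h, 8 were called in both, 1 in wild type alone and 8 in rcf1-1 alone. The matching shares of all probe sets were not counted. A call in a single genotype is no test of a difference between them, and those tests are given further on. Over the 47 members, the cold differences of wild type and of rcf1-1, which share no array, correlated at r = 0.93 at 12 h and 0.82 at 24 h. Over all probe sets the correlation was 0.86 and 0.73.

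**Figure D2:**
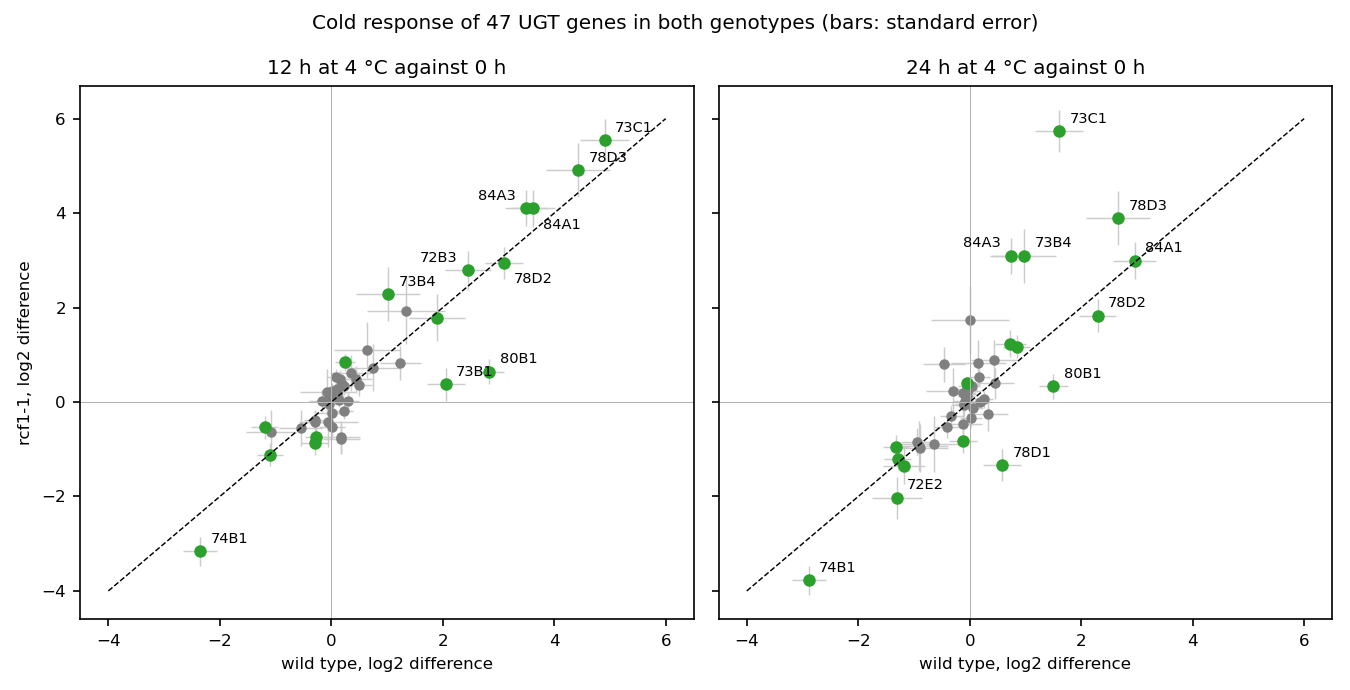
Log2 difference after 12 h (left) and 24 h (right) at 4 °C against 0 h, in wild type (horizontal axis) and rcf1-1 (vertical axis), for 47 UGT genes. Bars are standard errors, green points were called in at least 1 genotype at that time, grey points were not called, and the dashed line marks equal differences. UGT73C1 lies near the line at 12 h (4.90 and 5.55) and far above it at 24 h (1.60 and 5.74), while UGT80B1 lies below it at both times.

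Among the flavonoid enzymes, UGT78D2 (AT5G17050), a flavonoid 3-O-glucosyltransferase that also acts on anthocyanidins, rose in all 4 cold comparisons. Its arrays read 7.91 and 7.67 in wild type at 0 h, 10.81 and 10.96 at 12 h, and 10.63 and 9.54 at 24 h. In rcf1-1 they read 8.01 and 8.02, then 10.97 and 10.96, then 10.26 and 9.43. All chilled arrays lay above all unchilled ones. The rise was 3.09 ± 0.34 in wild type and 2.95 ± 0.34 in rcf1-1 at 12 h (adjusted p = 0.000162 and 0.000211), or 8.53-fold and 7.74-fold. At 24 h it was 2.29 ± 0.34 and 1.83 ± 0.34 (adjusted p = 0.00128 and 0.00345). All 4 calls held in each of the 12 fits that leave out 1 array.

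UGT78D3 (AT5G17030), a flavonol 3-O-arabinosyltransferase, moved like UGT78D2. It read 3.10 and 3.42 in unchilled wild type, 7.65 and 7.72 at 12 h, and 6.81 and 5.03 at 24 h. In rcf1-1 it read 3.08 and 3.0, then 8.03 and 7.86, then 7.78 and 6.07. The unchilled groups lay among the lowest signals, so the rises of 4.43 ± 0.57 and 4.91 ± 0.57 at 12 h are lower bounds in size (adjusted p = 0.000463 and 0.000221). At 24 h the rises were 2.66 ± 0.57 and 3.89 ± 0.57 (adjusted p = 0.0107 and 0.000863). The wild-type call at 24 h was lost without either wild-type 0 h array, and the rise was 1.77 without wild-type 24 h replicate 1.

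UGT78D1 (AT1G30530), a flavonol 3-O-rhamnosyltransferase, was called lower in the cold in rcf1-1 at 24 h, and its other cold differences were not called in the fit with all arrays. Its wild-type arrays read 7.89 and 7.78 at 0 h, 7.98 and 8.03 at 12 h, and 8.97 and 7.87 at 24 h. The rcf1-1 arrays read 8.10 and 8.16, then 7.46 and 7.30, then 7.21 and 6.39. Wild type differed from its 0 h level by 0.17 ± 0.34 at 12 h and 0.58 ± 0.34 at 24 h, neither called. The wild-type value at 24 h ran from 0.03 to 1.13 with 1 array left out. It was called at 1.13 without wild-type 24 h replicate 2 (adjusted p = 0.036) or both 24 h replicate 2 arrays, and at 1.06 with a term for them. In rcf1-1 the differences were -0.75 ± 0.34 at 12 h, not called (adjusted p = 0.219) but called under 4 of 8 alternatives other than leaving out 1 array, and -1.33 ± 0.34 at 24 h (adjusted p = 0.0196). This call was lost without either rcf1-1 0 h array and without rcf1-1 24 h replicate 2.

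The hydroxycinnamate enzymes UGT84A1 (AT4G15480) and UGT84A3 (AT4G15490), which form glucose esters of acids such as p-coumaric, ferulic and sinapic acid, also rose. UGT84A1 read 3.11 and 2.95 in unchilled wild type, 6.43 and 6.88 at 12 h, and 6.64 and 5.35 at 24 h. In rcf1-1 it read 3.07 and 2.63, then 7.06 and 6.84, then 6.15 and 5.53. Every chilled array lay above every unchilled one, and the 24 h groups overlapped between the genotypes. The rises were 3.62 ± 0.39 and 4.10 ± 0.39 at 12 h in wild type and rcf1-1, and 2.96 ± 0.39 and 2.99 ± 0.39 at 24 h. Their adjusted p ran from 5.97e-05 to 0.000632, and as the unchilled means were among the lowest signals the rises are lower bounds in size.

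UGT84A3 parted between the genotypes at 24 h. It read 4.36 and 5.09 in unchilled wild type, 8.20 and 8.24 at 12 h, and 5.93 and 5.0 at 24 h. In rcf1-1 it read 4.50 and 4.24, then 8.49 and 8.47, then 7.94 and 7.0. The 12 h rise was 3.49 ± 0.38 in wild type and 4.11 ± 0.38 in rcf1-1 (adjusted p = 0.000144 and 4.7e-05). At 24 h the wild-type difference was 0.74 ± 0.38 and not called, with arrays that overlapped those at 0 h, and in rcf1-1 the rise was 3.10 ± 0.38 (adjusted p = 0.000264). UGT84A4, which has the same family letter and lies beside UGT84A3 in the genome, was called in no comparison, with cold differences between -0.52 and -0.30.

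The monolignol enzymes gave mixed values. UGT72E2, which glucosylates coniferyl and sinapyl alcohol, read 6.87 and 6.98 in rcf1-1 at 0 h and 5.53 and 4.27 at 24 h, a fall of 2.03 ± 0.45 (adjusted p = 0.00918). Its wild-type difference at 24 h was -1.31 and was not called (adjusted p = 0.0839). UGT72E1, which acts on the corresponding aldehydes, fell by 1.35 ± 0.38 there (adjusted p = 0.0299), and by 0.86 and without a call when rcf1-1 24 h replicate 2 was left out. Its wild-type difference at 24 h was -1.18 and not called (adjusted p = 0.0694). For both genes the wild-type arrays at 24 h lay below those at 0 h, and the genotype differences in the cold response at 24 h, -0.72 for UGT72E2 and -0.17 for UGT72E1, were not called. UGT72E3, another monolignol enzyme, rose in rcf1-1 at 12 h by 0.84 ± 0.18 (adjusted p = 0.0107), with its unchilled mean among the lowest signals. All 3 of these calls were lost without either rcf1-1 0 h array, that of UGT72E1 also without either rcf1-1 12 h array, and that of UGT72E3 without rcf1-1 12 h replicate 2.

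UGT72B3 rose at 12 h in both genotypes. It read 4.51 and 4.46 in unchilled wild type, 7.06 and 6.82 at 12 h, and 5.61 and 4.25 at 24 h. In rcf1-1 it read 4.26 and 4.62, then 7.42 and 7.04, then 5.76 and 4.91. The rises at 12 h were 2.45 ± 0.41 and 2.79 ± 0.41 (adjusted p = 0.00269 and 0.00112), and both held whichever array was left out. Neither genotype was called at 24 h.

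The number family 73 held the member with the largest rise of the 47, UGT73C1 (AT2G36750). UGT73C1 puts glucose on transformation products of the explosive TNT, and on cytokinins in vitro. Its wild-type arrays read 2.96 and 3.19 at 0 h, 7.76 and 8.20 at 12 h, and 5.25 and 4.10 at 24 h. The rcf1-1 arrays read 3.52 and 3.21, then 9.02 and 8.80, then 9.75 and 8.46. The genotypes' nearest arrays read 3.19 and 3.21 at 0 h, and they lay further apart at 12 h and 24 h. The rises at 12 h were 4.90 ± 0.44 in wild type and 5.55 ± 0.44 in rcf1-1 (adjusted p = 3.57e-05 and 1.49e-05). At 24 h wild type stood 1.60 ± 0.44 above its 0 h level (adjusted p = 0.0345), and rcf1-1 stood 5.74 ± 0.44 above (adjusted p = 1.15e-05). As the unchilled means were among the lowest signals, all 4 rises are lower bounds in size. The wild-type call at 24 h was kept in 3 of 12 fits without 1 array, and the rise was 1.03 without wild-type 24 h replicate 1.

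UGT73B4, which also acts on transformation products of TNT and is known from stress and defence responses, rose in rcf1-1. Its arrays read 3.69 and 3.55 at 0 h, 5.81 and 6.00 at 12 h, and 7.94 and 5.50 at 24 h. In wild type they read 3.35 and 3.71, then 4.48 and 4.63, then 4.68 and 4.32. The rcf1-1 rises were 2.28 ± 0.57 at 12 h (adjusted p = 0.0242) and 3.10 ± 0.57 at 24 h (adjusted p = 0.00337), and the wild-type differences of 1.02 and 0.97 were not called. The unchilled means of 3.53 in wild type and 3.62 in rcf1-1 were among the lowest signals, so these differences are lower bounds in size. The rise at 24 h was 1.88 without rcf1-1 24 h replicate 1, and the call at 12 h was lost without any 1 of the 4 arrays it compares. UGT73B5, its neighbour in the genome, was called nowhere, though its 12 h differences were 1.34 in wild type and 1.93 in rcf1-1. From 0 h to 12 h its wild-type arrays went from 3.66 and 3.51 to 5.10 and 4.76. Those of rcf1-1 went from 3.62 and 3.57 to 5.39 and 5.67. UGT73B5 correlated with UGT73B4 at 0.85 over the 12 arrays. Its 24 h replicates were far apart, at 4.34 and 2.86 in wild type and 6.70 and 3.98 in rcf1-1.

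UGT73B1 rose at 12 h in wild type. Its arrays read 4.64 and 4.71 at 0 h, 6.68 and 6.78 at 12 h, and 5.11 and 4.01 at 24 h. In rcf1-1 they read 5.21 and 5.21, then 5.49 and 5.68, then 5.10 and 4.38. The wild-type rise at 12 h was 2.05 ± 0.34 (adjusted p = 0.00254), and the rcf1-1 difference was 0.37 ± 0.34 (adjusted p = 0.609). UGT73C2, UGT73C7 and UGT73D1 stayed among the lowest signals. UGT73C2 was called in rcf1-1 at 24 h at 0.41 ± 0.12 (adjusted p = 0.0359), a call kept in 5 of 12 fits without 1 array and the only one among the 16 low members.

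UGT80B1 (AT1G43620), a sterol glucosyltransferase and the only member of number family 80, rose in wild type. Its wild-type arrays read 4.21 and 4.00 at 0 h, 6.89 and 7.0 at 12 h, and 5.74 and 5.48 at 24 h. The rcf1-1 arrays read 4.09 and 3.94, then 4.47 and 4.85, then 4.04 and 4.65. The genotypes overlapped at 0 h and lay apart at both later times. The wild-type rise was 2.84 ± 0.26 at 12 h (adjusted p = 3.99e-05), or 7.14-fold, and 1.5 ± 0.26 at 24 h (adjusted p = 0.00319). In rcf1-1 the differences of 0.64 ± 0.26 and 0.33 ± 0.26 were not called (adjusted p = 0.152 and 0.386). The unchilled means, 4.11 in wild type and 4.02 in rcf1-1, lay close on either side of the lowest array median, 4.03. The wild-type rises may thus be understated as well. By the convention only the rcf1-1 mean was low, which makes both rcf1-1 differences lower bounds in size. The 12 h value was called under 4 of 8 alternatives other than leaving out 1 array (quality weights, the compared arrays alone, and both fits that set the 24 h replicate 2 arrays apart), with a lowest adjusted p of 0.00445. The 24 h value ran from 0.02 to 0.63 with 1 array left out and was called in no alternative fit.

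**Figure D3:**
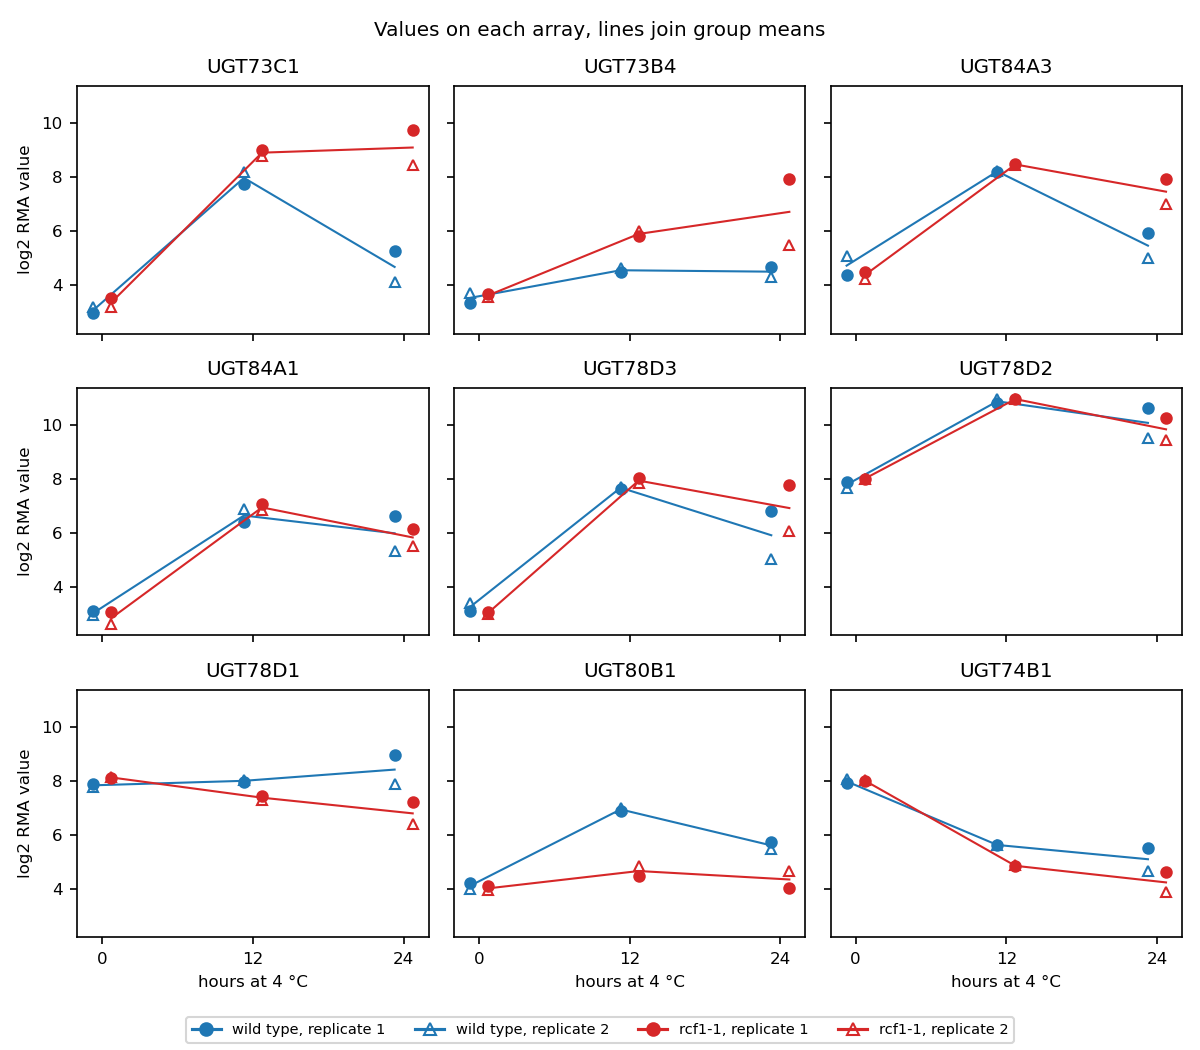
Log2 RMA value (vertical axis) of 9 UGT genes on each of the 12 arrays, in wild type (blue) and rcf1-1 (red) after 0 h, 12 h and 24 h at 4 °C (horizontal axis). Filled circles are replicate 1, open triangles are replicate 2, and lines join the group means. UGT73C1 fell back in wild type by 24 h (5.25 and 4.10) and stayed high in rcf1-1 (9.75 and 8.46).

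UGT74B1 (AT1G24100), which adds the glucose of glucosinolates, fell the most of the 47. Its wild-type arrays read 7.91 and 8.06 at 0 h, 5.61 and 5.64 at 12 h, and 5.52 and 4.68 at 24 h. The rcf1-1 arrays read 7.99 and 8.04, then 4.84 and 4.87, then 4.61 and 3.87. Unchilled arrays of both genotypes lay above all chilled ones. The differences were -2.36 ± 0.30 in wild type and -3.16 ± 0.30 in rcf1-1 at 12 h, and -2.89 ± 0.30 and -3.78 ± 0.30 at 24 h (adjusted p from 1.62e-05 to 0.000478). All 4 calls held whichever array was left out.

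UGT88A1, which glucosylates flavonoids in vitro, fell by 1.1 ± 0.24 and 1.33 ± 0.24 in wild type at 12 h and 24 h (adjusted p = 0.0115 and 0.00403). Its arrays went from 9.60 and 9.81 to 8.81 and 8.42, then to 8.61 and 8.15. In rcf1-1 they went from 9.24 and 9.23 to 8.08 and 8.17, then to 8.06 and 8.52, falls of 1.11 ± 0.24 and 0.95 ± 0.24 (adjusted p = 0.00994 and 0.0169). The wild-type call at 24 h held in all 12 fits without 1 array, and the other 3 in 8 to 10 of them.

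Several members act on hormones, and 3 of those named here were called. UGT71C5, which glucosylates abscisic acid, rose in rcf1-1 at 24 h by 1.24 ± 0.28 (adjusted p = 0.0111), and by 0.80 without rcf1-1 24 h replicate 1, with no call without either rcf1-1 0 h array. The cytokinin N-glucosyltransferases UGT76C1 and UGT76C2 fell in rcf1-1 at 12 h by 0.73 ± 0.20 and 0.87 ± 0.24 (adjusted p = 0.0399 and 0.0408). UGT76C2 also fell at 24 h, by 0.83 ± 0.24 (adjusted p = 0.0345). These 3 cytokinin-related calls were kept in 4 to 6 of 12 fits without 1 array, and neither gene was called in wild type. The abscisic acid enzymes UGT71B6 and UGT71B8, the salicylate enzyme UGT74F1, the jasmonate-related UGT76E1 and the auxin enzyme UGT84B1 stayed among the lowest signals in every group. UGT74D1, an auxin glucosyltransferase, read 7.81 and 7.59 in unchilled wild type and 8.97 and 8.90 at 12 h, a difference of 1.24 that was not called (adjusted p = 0.0506).

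The remaining called members were UGT71C1, UGT76D1 and UGT76E11. UGT71C1 fell in wild type by 1.19 ± 0.24 at 12 h and 1.29 ± 0.24 at 24 h (adjusted p = 0.00824 and 0.00526), and in rcf1-1 by 1.20 ± 0.24 at 24 h (adjusted p = 0.00565). The chilled means of these comparisons, 3.48, 3.38 and 3.02, were among the lowest signals, so the falls are lower bounds in size. Both wild-type calls were lost without wild-type 0 h replicate 2, the 12 h one also without wild-type 12 h replicate 1, and the rcf1-1 call without rcf1-1 0 h replicate 1. UGT76D1, which acts on dihydroxybenzoic acids, rose at 24 h by 0.84 ± 0.24 in wild type and 1.17 ± 0.24 in rcf1-1 (adjusted p = 0.0447 and 0.00639), from means among the lowest signals. The wild-type call was kept in 5 of 12 fits without 1 array, and the rcf1-1 call was lost without rcf1-1 0 h replicate 1. UGT76E11 rose at 12 h by 1.90 ± 0.49 and 1.79 ± 0.49 (adjusted p = 0.0296 and 0.0382), each called in 4 of 12 fits without 1 array. In number families 85, with 5 members, and 87, with 1, none was called.

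**Figure D4:**
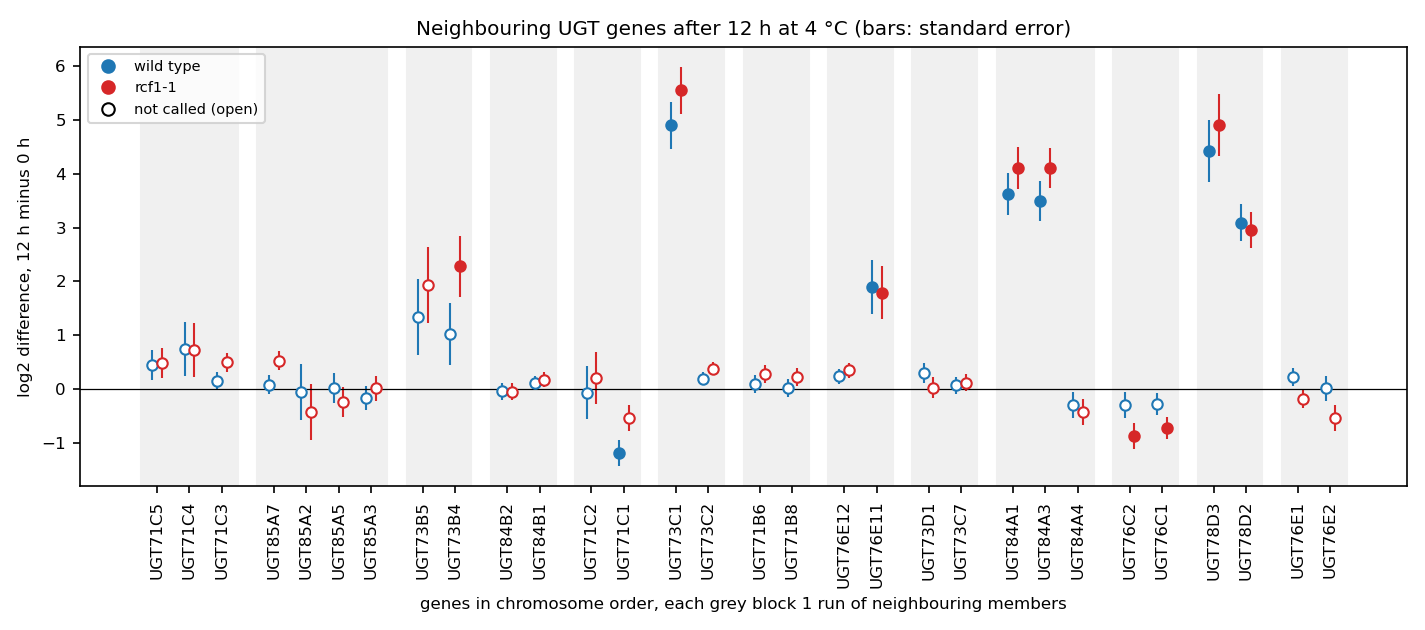
Log2 difference after 12 h at 4 °C against 0 h (vertical axis) in wild type (blue) and rcf1-1 (red) for the 30 members that lie next to another member, in chromosome order with a grey block for each of 13 runs. Filled points were called, open points were not, and bars are standard errors. In wild type UGT84A1 and UGT84A3 stand at 3.62 and 3.49 and UGT84A4, in the same run, at -0.30.

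Many UGT genes lie next to one another, and in some runs of neighbours only part of the members were called in the cold. In the gene order of TAIR10.1, 30 of the 47 members fell into 13 runs in which at most 1 other protein-coding gene lay between members. In 5 runs some members and not others were called in a cold comparison, in 3 all were called and in 5 none was. The uncalled runs of UGT84B2 and UGT84B1, UGT71B6 and UGT71B8, UGT73D1 and UGT73C7, and UGT76E1 and UGT76E2 held only members low in all 6 groups. In the split runs the uncalled UGT71C3 and UGT76E12 were low in all 6 groups and UGT71C2 in 5. UGT73B5 and UGT84A4 were low in 3, and UGT71C4 in none. UGT73C2, in a run where all were called, was low in all 6. The part of low signal in these splits was not tested. Over the 17 neighbouring pairs, the correlation of the log2 values over the 12 arrays ran from -0.55 to 0.97 with a median of 0.52. UGT78D3 and UGT78D2 had the highest, and UGT84A3 and UGT84A4 the lowest. UGT84A1 and UGT84A3 correlated at 0.88. These points share the 6 groups and the same arrays. UGT73C1 and UGT73C2 correlated at 0.82, although UGT73C2 kept between 2.33 and 2.88 on all arrays. Binding of related transcripts to the same probes was not tested.

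The question the mutant addresses is whether the cold response differs in rcf1-1. At 12 h UGT80B1 alone was called in rcf1-1 against wild type, 2.13% of the family beside 1.35% of all probe sets, and 6 members had an unadjusted p under 0.05. UGT80B1 was 2.28 ± 0.26 lower on the log2 scale in rcf1-1 (adjusted p = 0.00264), or 4.87-fold. The count was 2 without any 1 of the 4 arrays at 24 h. The call was lost without rcf1-1 12 h replicate 1, which left no member called, and the adjusted p ran up to 0.0581 over the alternatives tried. UGT73C1 differed by 0.94 ± 0.44 (adjusted p = 0.445) and UGT78D1 by -0.63 ± 0.34 (adjusted p = 0.56). Neither was called with 1 array left out, and both were called under 4 of 8 other alternatives.

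At 24 h 5 members were called, 3 higher and 2 lower, which is 10.6% of the family beside 7.5% of all probe sets. UGT73C1 was higher in rcf1-1 by 4.43 ± 0.44 (adjusted p = 0.000305), or 21.5-fold, and this call held in all 12 fits without 1 array, at 3.78 to 5.07. UGT84A3 was higher by 2.00 ± 0.38 (adjusted p = 0.0101) and UGT73B4 by 2.22 ± 0.57 (adjusted p = 0.0412). UGT78D1 was lower by 1.62 ± 0.34 (adjusted p = 0.0172) and UGT80B1 by 1.26 ± 0.26 (adjusted p = 0.014), both on the log2 scale. In all 5, the arrays of the genotypes did not overlap, which with 2 arrays per group also occurs in uncalled members. An example was UGT71B1 at 12 h, at a difference of 0.25 (limma, adjusted p = 0.963). The share of all probe sets without overlap was not counted. The UGT73B4 call was kept in 2 of 12 fits without 1 array, and its difference was 1.00 without rcf1-1 24 h replicate 1 and 3.44 without rcf1-1 24 h replicate 2. UGT78D1 lost its call without rcf1-1 24 h replicate 2 and differed by -1.07 without wild-type 24 h replicate 1, and UGT80B1 lost its call without rcf1-1 24 h replicate 1.

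Without both 24 h replicate 2 arrays, 20 members were called at 24 h, 13 higher and 7 lower, where 21.4% of all probe sets were called, and the 5 genes above were among them. UGT73C1 was then higher by 4.50, UGT73B4 by 3.26 and UGT84A3 by 2.01, and UGT78D1 and UGT80B1 differed by -1.76 and -1.70. In this fit each genotype has 1 array at 24 h, which is assumed to vary like those of the other groups. At 12 h, 10 members were called in it, where 13.7% of all probe sets were. Without wild-type 24 h replicate 2 alone, 8 members were called at 24 h, and without rcf1-1 24 h replicate 2 alone, 11. With array quality weights 1 member was called at 24 h, UGT73C1, and UGT84A3, UGT73B4, UGT78D1 and UGT80B1 lost their calls. With the arrays of the compared groups alone, no member was called at 24 h.

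Averaged over the 3 times, 3 members were called, 6.38% beside 8.45% of all probe sets. UGT73C1 was higher in rcf1-1 by 1.88 ± 0.25 (adjusted p = 0.00172) and UGT73B4 by 1.22 ± 0.33 (adjusted p = 0.0466), and UGT80B1 differed by -1.21 ± 0.15 (adjusted p = 0.00101). The UGT73B4 call was kept in 3 of 12 fits without 1 array. The count was 5 without wild-type 24 h replicate 1, wild-type 24 h replicate 2 or rcf1-1 24 h replicate 1, and 6 without rcf1-1 24 h replicate 2. UGT78D1 differed by -0.65 (adjusted p = 0.0741), and was called in 2 of 12 fits without 1 array and under 5 of 8 other alternatives. The guard cell marker GC1 was lower in rcf1-1 in this average too, by 0.62 on the log2 scale. The average shares its arrays with the comparisons at single times.

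The genotypes' cold responses were tested against each other. At 12 h no member was called, where 0.0879% of all probe sets were, and 3 members had an unadjusted p under 0.05. UGT80B1 differed by -2.19 ± 0.36 (adjusted p = 0.0771), UGT73C1 by 0.65 and UGT78D1 by -0.92 (adjusted p = 1 for both). UGT80B1 was called in 4 of 12 fits without 1 array and under 4 of 8 other alternatives, and UGT78D1 under 3 of the 8. The unchilled rcf1-1 mean of UGT80B1, 4.02, was low, and the wild-type one, 4.11, lay just above the lowest array median. A single member was called without any 1 of the 4 arrays at 24 h, at a count of 1 each time. Without both 24 h replicate 2 arrays, 5 members were called at 12 h, where 3.0% of all probe sets were. UGT73B4 was the one higher, and UGT73B1, UGT74B1, UGT78D1 and UGT80B1 were lower.

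At 24 h UGT73C1 alone was called, 2.13% of the family beside 1.1% of all probe sets, with 7 members at an unadjusted p under 0.05. Its rise was larger in rcf1-1 by 4.14 ± 0.62 on the log2 scale (adjusted p = 0.0126). Both unchilled means were among the lowest signals, and the call was lost without wild-type 0 h replicate 2 or either rcf1-1 0 h array, with an adjusted p of up to 0.113 over all alternatives. The count was 3 without either wild-type 24 h array, 2 without rcf1-1 24 h replicate 1 and 5 without rcf1-1 24 h replicate 2. Without both 24 h replicate 2 arrays the difference was 4.21, and 14 members were called, where 13.8% of all probe sets were. UGT78D1 differed by -1.92 ± 0.49 (adjusted p = 0.0996), UGT80B1 by -1.17 ± 0.36 (adjusted p = 0.178) and UGT84A3 by 2.36 (adjusted p = 0.0674). UGT78D1 was called in 2 of 12 fits without 1 array and under 3 of 8 other alternatives, and UGT80B1 in 1 and under 2. For UGT80B1 the unchilled rcf1-1 mean was low, and the wild-type one lay just above the lowest array median.

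A comparison of 24 h with 12 h was added after the values were seen. In wild type 6 members were lower at 24 h than at 12 h and none higher, 12.8% of the family beside 4.62% of all probe sets called either way and 2.89% called lower. They were UGT73C1 at -3.30 ± 0.44 (adjusted p = 0.00184), UGT84A3 at -2.75 ± 0.38 (adjusted p = 0.00213), UGT76E11 at -2.19, UGT73B1 at -2.17, UGT72B3 at -2.01 and UGT80B1 at -1.33. The calls of UGT73C1 and UGT84A3 held whichever array was left out. UGT72B3 and UGT80B1 lost theirs without either wild-type 12 h array or without wild-type 24 h replicate 2, where UGT72B3 differed by -1.33. UGT73B1 lost its call without wild-type 12 h replicate 2, and UGT76E11 kept its call in 3 of 12 fits. The count was 14 without wild-type 24 h replicate 1, 3 without wild-type 24 h replicate 2 and 2 without wild-type 12 h replicate 2.

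In rcf1-1 UGT72B3 alone was lower at 24 h than at 12 h, by 1.90 ± 0.41 on the log2 scale (adjusted p = 0.0342), beside 3.19% of all probe sets called. It kept the call in 3 of 12 fits. The count was 0 without any 1 of the 8 arrays at 0 h and 12 h, 7 and 8 without wild-type 24 h replicates 1 and 2, and 11 and 3 without those of rcf1-1. UGT73C1 differed by 0.19 ± 0.44 (adjusted p = 0.855) and UGT84A3 by -1.01 (adjusted p = 0.19). The UGT73C1 value ran from -0.45 to 0.84 with 1 array left out, and it was called at 0.84 without both 24 h replicate 2 arrays (adjusted p = 0.0226) and at 0.80 with a term for them. The difference between the genotypes in this change was called for no member, beside 0.255% of all probe sets, and 6 had an unadjusted p under 0.05. For UGT73C1 it was 3.49 ± 0.62 (adjusted p = 0.0524), and it was called in 2 of 12 fits without 1 array and under 6 of 8 other alternatives, at 3.49 to 3.57 over the 8. The count for the difference was 1 without wild-type 24 h replicate 1 and 2 without rcf1-1 24 h replicate 2. In the fit that leaves out both 24 h replicate 2 arrays, 10 members were called in wild type, 16 in rcf1-1 and 11 for the difference, beside 12.0%, 15.6% and 8.9% of all probe sets.

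Of 110 listed genes that supply the acceptors or act beside UGT enzymes, 7 were paired with a probe set in the look-up used here. The others were not analysed, which does not show that the array lacks them. The paired genes therefore do not stand for their pathways. In the flavonoid list DFR, dihydroflavonol reductase of the anthocyanin branch, fell in all 4 cold comparisons, by 1.80 and 1.22 in wild type and by 1.33 and 2.65 in rcf1-1 at 12 h and 24 h. BAN, the anthocyanidin reductase gene, read 2.40 to 2.96 and was not called. In the phenylpropanoid list HCT, hydroxycinnamoyltransferase of the lignin pathway, fell by 1.13 ± 0.31 in wild type at 24 h (adjusted p = 0.0337). Its rcf1-1 difference at 24 h was -0.90 and not called (adjusted p = 0.0623), and it was lower at 24 h than at 12 h in both genotypes, by 1.33 and 1.34 on the log2 scale (adjusted p = 0.033 and 0.0424). CCR2, a cinnamoyl-CoA reductase gene, was not called. USP, which makes UDP-sugars, was not called either, with cold differences from -1.05 to -0.51. None of 20 sterol and brassinosteroid genes was paired.

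Of the 25 genes in the xenobiotic list, 2 were paired, the glutathione transferase genes GSTU22 and GSTU25 of the tau class. Enzymes of this class act on foreign compounds. The list was chosen with earlier results of these data known, so these 2 genes are no independent test beside UGT73C1. Both rose in all 4 cold comparisons. GSTU22 was higher in rcf1-1 than in wild type by 1.85 ± 0.24 at 12 h (adjusted p = 0.00462) and 3.42 ± 0.24 at 24 h (adjusted p = 2.14e-05). GSTU25 was higher at 24 h by 1.98 ± 0.45 (adjusted p = 0.0232). The genotype difference in the cold response at 24 h was called for GSTU22, at 3.06 ± 0.33 (adjusted p = 0.00222).

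The 25 members called in no planned comparison lie in all number families but 72, 78, 80 and 88. UGT84B2, also taken by the rule for naming, read 2.37 to 2.99 over the 12 arrays and was among the lowest signals in every group. Among the uncalled members with clear signal, UGT71C4 read 5.80 to 8.57 over the 12 arrays, UGT71B1 read 4.04 to 6.81 and UGT87A2 read 5.69 to 7.92. UGT85A2 read 3.99 to 6.04. The lowest values of UGT71C4, UGT71B1, UGT87A2 and UGT85A2 were all on a 24 h replicate 2 array.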

How the data were processed

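RNA from 12 samples was hybridised to Affymetrix ATH1 arrays. The authors deposited log2 values of every probe set on every array. These are RMA values per the submitters' processing notes. Software, version and the arrays normalized jointly were not given in the sources used here, and no scanner files were used. Without detection calls, low signals cannot be told from absence, and the number of arrays limits precision.

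Of 22810 probe sets, 64 controls were left out. Genes came from the array's probe annotation and RefSeq's TAIR10.1 table, which served for names and gene order. No sequences were used here. limma 3.58.1 in R 4.3.3 fitted a mean per group on all 12 arrays (6 residual and 4.7 prior degrees of freedom), with a variance trend. P-values are two-sided and Benjamini-Hochberg adjusted over 22746 probe sets per comparison, called under 0.05. The procedure was tested on simulated data.

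Replicates are biological, per the series' text. Replicate differences correlated between groups from -0.10 to 0.69, and above 0.1 in 1 of 15 pairs of groups, so replicate numbers were not taken as pairs. That 1 pair was wild type and rcf1-1 at 24 h, at 0.69. The difference that their replicates share stays in the error of the main fit.

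Members and gene lists were chosen with earlier results of these data known. Named are the called members, at most 12 per direction, with UGT73C1, UGT78D1 and UGT80B1 throughout, the 3 highest and 3 lowest members by mean, and called pathway genes. The lists were UDP-sugar supply, flavonoid, phenylpropanoid, sterol and brassinosteroid, and xenobiotic genes, and markers of root, green tissue, guard cell and epidermis.

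Alternatives were no trend, a filter at the 30th percentile, a replicate block, quantile normalization a second time, array quality weights, the compared arrays alone, a 2-fold minimum, other choices of probe set, a fit without both 24 h replicate 2 arrays, a term for those arrays, and each array left out. The comparisons of 24 h with 12 h were chosen after seeing the data.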

Additional observations from a re-analysis of the deposited data

Results flagged for a closer look

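The genotype difference in the cold response of UGT73C1 at 24 h is listed for a closer look because the difference itself was tested and called. The rise from 0 h was 4.14 larger in rcf1-1 than in wild type on the log2 scale (limma, adjusted p = 0.0126). Every rcf1-1 array at 24 h lay above every wild-type one, which with 2 arrays per group also occurs in uncalled members. No value of the named members in single groups could be tested for a sample far from the others, since each group has 2 arrays.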

How the results depend on the processing

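Counts moved with the number of arrays, with the 24 h replicate 2 arrays and with other choices. Counts of called members are given in the order rcf1-1 against wild type at 12 h, 24 h and on average, wild type at 12 h and 24 h, rcf1-1 at 12 h and 24 h, the genotype difference in the cold response at 12 h and 24 h, then 24 h against 12 h in wild type, in rcf1-1 and for their difference. The counts as reported were 1, 5, 3, 12, 9, 13, 16, 0, 1, 6, 1 and 0. Without both 24 h replicate 2 arrays they were 10, 20, 15, 18, 18, 28, 25, 5, 14, 10, 16 and 11. With a term for these arrays they were 6, 13, 13, 17, 19, 26, 22, 3, 9, 10, 14 and 6. Array quality weights gave 8, 1, 5, 17, 9, 29, 15, 2, 1, 8, 3 and 1, and the arrays of the compared groups alone gave 10, 0, 3, 18, 3, 32, 7, 5, 0, 2, 0 and 0. For rcf1-1 at 24 h against 12 h, the count was 3 without the variance trend, and 2 with the filter on low values or a second quantile normalization. The filter and the quantile normalization each gave 1 for the difference in the change from 12 h to 24 h, and the quantile normalization gave 3 for the genotype difference at 24 h. With 1 array left out, the counts ranged over 0 to 2, 4 to 11, 2 to 6, 9 to 15, 5 to 15, 7 to 16, 7 to 20, 0 to 1, 0 to 5, 2 to 14, 0 to 11 and 0 to 2. The count at 0 h was 0 in every fit run.

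The replicate block gave 1, 6, 4, 13, 9, 11, 16, 0, 1, 6, 1 and 1. Apart from the difference shared by both genotypes at 24 h, the replicate numbers were not seen to pair these samples. Averaging a gene's probe sets and the exclusion of probe sets with shared binding changed nothing, as each member has 1 probe set. A 2-fold minimum gave 8 in wild type at 24 h and 10 and 13 in rcf1-1 at 12 h and 24 h, and changed no other count. Leaving out these probe-set alternatives, 1548 single-member results under an alternative kept direction and side of the threshold, 189 lost a call, 59 gained one and 3 changed sign. The 3 were UGT80B1 at 0 h between the genotypes (0.013 without WT 0 h replicate 1, -0.196 without replicate 2), UGT78D1 in wild type at 24 h against 12 h (-0.13 without WT 24 h replicate 1, 0.97 without replicate 2) and UGT73C1 in rcf1-1 at 24 h against 12 h (-0.45 without rcf1-1 24 h replicate 1, 0.84 without replicate 2). None was called in these fits or with all arrays, and the last 2 were called, at 0.97 and 0.84, without both 24 h replicate 2 arrays and, at 0.90 and 0.80, with a term for them. For alternatives that leave out arrays, fewer samples enter the fit, and for the others the cause was not tested.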
